A study of Homo sapiens with 11 samples.

Results

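The genes of the mitochondrial respiratory chain and ATP synthase were examined in HEK293T cells after siRNA knockdown of NAE1, UBE2M or URM1. Members were chosen by gene symbol among protein-coding genes: the NDUF, SDH, UQCR, COX4 to COX8 and ATP5 families, CYC1, and every gene encoded on mitochondrial DNA (MT-). The rule found 104 genes of 58735 listed, of which 91 are nuclear and 13 are MT- genes. Complex I holds 37 nuclear and 7 MT- members, complex II 4 nuclear members, complex III 10 and 1, complex IV 19 and 3, and complex V 21 and 2. NDUFA4, once counted in complex I, was placed in complex IV with its paralog NDUFA4L2. The acyl carrier protein NDUFAB1 falls outside the symbol rule.

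HEK293T is a transformed human embryonic kidney line. Cells were transfected for 48 h with 50 nM siRNA against NAE1 (siNAE1, n = 3), 70 nM against UBE2M (siUBE2M, n = 3) or 60 nM against URM1 (siURM1, n = 2), and 3 libraries are labelled as control siRNA, with no dose given. The study's methods describe the negative control of its knockdowns as a non-targeting siRNA, and elsewhere the study calls the control RNA-seq group HKWT. NAE1 is the regulatory subunit of the enzyme that activates the ubiquitin-like protein NEDD8, and UBE2M is a NEDD8-conjugating enzyme. URM1 is itself a ubiquitin-like protein. The siRNA dose differs between the knockdowns, so target and dose cannot be told apart when they are compared.

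The respiratory chain passes electrons from NADH through complex I, or from succinate through complex II, to ubiquinone, then through complex III and cytochrome c to complex IV, which reduces oxygen. Complexes I, III and IV pump protons, and complex V uses the gradient to make ATP. Complex II is encoded entirely in the nucleus, while the other complexes join nuclear subunits with subunits that mitochondria transcribe and translate themselves. Mitochondrial DNA is transcribed from both strands into long precursors, from which messenger, ribosomal and transfer RNAs are cut.

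The libraries held between 11733163 and 16321391 counts. FPKM values are fragments per kilobase of gene length, scaled between libraries. Among the HEK293T markers, VIM had a mean of 33.5 FPKM in control, INA 19.9 FPKM and NEFM 17.7 FPKM. KRT18 was at 11.2 FPKM and PAX2 at 1.59 FPKM. These markers also differed between groups. NEFM rose in siNAE1 and siURM1 (log2 fold change 1.19 in each) and was at -0.12 in siUBE2M (adjusted p = 0.169). VIM rose in all knockdowns (0.42, 0.95 and 0.74), while PAX2 fell in siUBE2M (-0.90) and rose in siURM1 (0.92). INA fell in siNAE1 (-0.68) and siUBE2M (-0.45) and rose in siURM1 (0.30). NEFL rose in siNAE1 (0.75) and siUBE2M (0.18) and was at 0.06 in siURM1 (adjusted p = 0.553). KRT8 rose in siNAE1 (0.50) and siURM1 (0.57) and fell in siUBE2M (-0.37), and KRT18 rose in siURM1 (0.44). The part of such shifts in the members' values was not tested. Markers of hepatocytes, blood and endothelium were at or near 0: in control ALB had 0.0910 FPKM, and AFP, SERPINA1 and PTPRC were listed at 0. Of the fibroblast markers, DCN was at 0.00155 FPKM and COL1A1 at 2.12 FPKM. COL1A1 rose in siUBE2M (0.38, adjusted p = 0.00355) and did not pass in siNAE1 or siURM1.

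The targeted genes were lowered in the libraries labelled for them. Values per library are CPM, counts scaled to library size after TMM normalization. NAE1 was at 98.9, 109 and 99.0 CPM in control and at 41.6, 42.6 and 35.2 CPM in siNAE1. UBE2M was at 263, 268 and 264 CPM in control and at 15.6, 15.6 and 19.1 CPM in siUBE2M. URM1 was at 54.4, 51.0 and 55.4 CPM in control and at 15.2 and 15.5 CPM in siURM1. The log2 fold changes were -1.36 ± 0.08 (SE) for NAE1, -3.98 ± 0.08 for UBE2M and -1.80 ± 0.10 for URM1. Each target was lowest in its own knockdown, with no overlap with any other group. The targets also differed from control in other knockdowns. UBE2M fell in siNAE1 (-0.16, adjusted p = 0.0289) and siURM1 (-0.37, adjusted p = 8.94e-05). NAE1 rose in siUBE2M (0.28) and siURM1 (0.38), and URM1 rose in siNAE1 (0.28).

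The 13 MT- genes took 3.85%, 4.09% and 3.82% of all counts in control. They took 4.04%, 4.15% and 4.39% in siNAE1, which overlaps the control range. They took 3.65%, 3.60% and 3.87% in siUBE2M, again overlapping it, and 4.60% and 4.87% in siURM1, above every other library. The 91 nuclear members together took 0.910%, 0.967% and 0.912% in control and 0.948%, 0.938% and 1.02% in siUBE2M. They took 1.04%, 1.10% and 1.12% in siNAE1 and 1.08% and 1.12% in siURM1, above all control libraries. These shares carry no test. In bulk RNA, fewer cells with a transcript and less of it per cell cannot be told apart.

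On the FPKM scale, which allows for gene length, the most abundant MT- members in control were MT-CO2 (mean 7185 FPKM) and MT-CO1 (6936 FPKM), both core subunits of complex IV. MT-ATP8 was lowest, at 150 FPKM. MT-ATP8 shares 22.2% of its exonic bases with MT-ATP6, so the counts of this pair are uncertain. Among nuclear members, ATP5F1B, the catalytic beta subunit of ATP synthase, was highest at 315 FPKM in control. The highest nuclear members of the other complexes were NDUFS5 in complex I (190 FPKM), SDHB in complex II, UQCRH in complex III (162 FPKM) and COX8A in complex IV (171 FPKM).

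The comparison of siNAE1 with control asked which transcripts change when the regulatory subunit of the NEDD8-activating enzyme is depleted. All 13 MT- members passed the test (edgeR, adjusted p under 0.05), 11 higher and 2 lower. Over all 18368 genes tested, 27.6% were higher and 27.1% lower. The median log2 fold change was 0.32 for the MT- members and -0.0021 for all tested genes. The TMM factors were 1.04 to 1.06 in control and 0.949 to 0.981 in siNAE1. They were 0.989 to 1.02 in siUBE2M and 0.983 to 0.984 in siURM1. A lower factor raises CPM values over plain library size. No fit on plain library size was made, so the part of this scaling in small rises was not tested. All 7 MT- subunits of complex I rose. MT-CYB, the only MT- subunit of complex III, fell, as did MT-CO2.

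MT-ND6 is the only MT- protein-coding gene whose sense strand is the opposite one (chrM:14149-14673, minus strand in the deposited table). It was at 424, 487 and 461 CPM in control and at 725, 810 and 972 CPM in siNAE1, with no overlap. Its log2 fold change was 0.87 ± 0.08 (adjusted p = 1.92e-11). The strand setting of the counting is not given in the sources used here. Counted without strand, this value would also hold fragments of the opposite strand. The libraries were selected by poly(A), and how fully this captured MT-ND6 RNA in each group was not tested. MT-CYB (chrM:14747-15887, plus strand) was at 2810, 2981 and 2906 CPM in control and at 2420, 2611 and 2562 CPM in siNAE1. It fell by 0.20 on the log2 scale (adjusted p = 0.00820), and the groups did not overlap. MT-CO2 was at 4644, 5179 and 5045 CPM in control and at 4005, 4601 and 4303 CPM in siNAE1, and it fell by 0.20 (adjusted p = 0.0139). That call was lost without control replicate 2, control replicate 3 or siNAE1 replicate 1, with adjusted p up to 0.0903. The rises of MT-CO3 (log2 fold change 0.18) and MT-ATP6 (0.18) were lost without control replicate 1 or siNAE1 replicate 3, that of MT-CO3 also without control replicate 3 and that of MT-ATP6 also without siNAE1 replicate 2.

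The balance among MT- transcripts, for which no test was made, also differed between groups. The 7 MT-ND genes made up 29.4%, 29.6% and 30.3% of MT- member counts in control and 35.4%, 34.3% and 35.6% in siNAE1. They made up 31.1%, 32.2% and 30.3% in siUBE2M and 32.1% and 31.5% in siURM1. The 3 MT-CO genes made up 54.9%, 55.4% and 53.6% in control, 50.9%, 52.0% and 51.5% in siNAE1, 52.7%, 53.0% and 52.9% in siUBE2M and 52.6% and 53.4% in siURM1. MT-CYB made up 7.69%, 7.55% and 7.95% in control and 5.86%, 5.97% and 5.54% in siNAE1, with 7.68%, 6.96% and 7.76% in siUBE2M and 7.18% and 6.90% in siURM1. For every 100 MT-CO1 counts there were 42.7, 44.6 and 51.1 MT-CO2 counts in control and 33.9, 36.3 and 30.9 in siNAE1, with 49.0, 43.1 and 53.8 in siUBE2M and 41.4 and 46.0 in siURM1. In each of these measures the siNAE1 libraries lay outside the control range. The siURM1 libraries did so for the MT-ND, MT-CO and MT-CYB shares. The siUBE2M libraries lay below control in the MT-CO share and overlapped control in the other 3 measures.

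In siURM1, 12 of 13 MT- members were higher and 0 were lower than control by edgeR. At an unadjusted p under 0.05, 13 were higher and 0 lower, and DESeq2 called 11 higher and 0 lower. Over all tested genes, 20.8% were higher and 20.8% lower. The median log2 fold change was 0.39 for the MT- members and -0.021 for all tested genes. MT-ND2, a complex I core subunit, rose most: it was at 1397, 1580 and 1508 CPM in control and at 2513 and 2862 CPM in siURM1 (log2 fold change 0.85 ± 0.07, adjusted p = 1.63e-11). MT-CO3 was at 4538, 5082 and 4662 CPM in control and at 6492 and 7420 CPM in siURM1 (log2 fold change 0.55 ± 0.07, adjusted p = 1.26e-07). Neither gene's siURM1 values overlapped control. MT-CO2 did not pass, at a log2 fold change of 0.19 (adjusted p = 0.0508). The rise of MT-ATP8 was lost without siURM1 replicate 1 (adjusted p up to 0.432), and that of MT-ND1 without siURM1 replicate 2 (adjusted p up to 0.110).

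In siUBE2M, 2 MT- members were higher and 2 lower than control, and 9 did not pass. The background was 22.7% higher and 22.6% lower. MT-ND5 and MT-ND2 were higher, with log2 fold changes of 0.30 and 0.20. MT-ND1 and MT-CO1 were lower, with log2 fold changes of -0.17 and -0.15. MT-ND5 was at 1684, 2421 and 1698 CPM in siUBE2M, against 1512, 1759 and 1442 CPM in control. The second siUBE2M library was high, and the call was lost without it, without control replicate 1 or 3, or with DESeq2, with adjusted p up to 0.332. Without control replicate 1, 0 MT- members were higher, and without control replicate 2 or siUBE2M replicate 1 or 2, 0 were lower (edgeR). Without siUBE2M replicate 3, 1 was higher and 4 were lower, and the MT- median was -0.013 in place of 0.06. DESeq2 called 1 higher and 2 lower, and at an unadjusted p under 0.05 there were 2 and 2. The other 3 calls were each lost without at least 1 library: MT-ND2 without control replicate 1 or siUBE2M replicate 3, and MT-ND1 without control replicate 2 or 3 or siUBE2M replicate 1 or 2. MT-CO1 was lost without control replicate 1 or 2, siNAE1 replicate 2, or siUBE2M replicate 1 or 2.

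**Figure D1:**
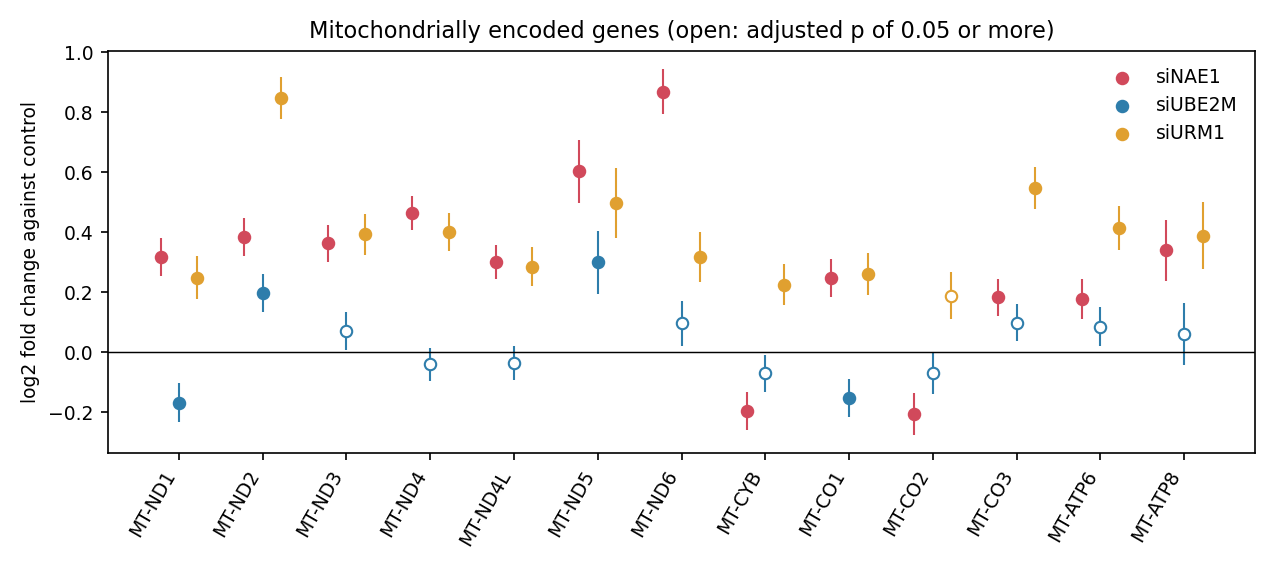
Log2 fold change against control of each MT- member in each knockdown, with bars of 1 standard error; open points have an adjusted p of 0.05 or more. The siNAE1 points run from -0.20 for MT-CO2 to 0.87 for MT-ND6, and all siURM1 points lie above 0.

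The nuclear members were tested in the same fit. Of 91, 83 passed the filter on low counts. The other 8 were COX7A1, COX8C, COX4I2, COX6A2, COX7B2, ATP5MF-PTCD1, ATP5MGL and NDUFC2-KCTD14, most of them tissue-restricted isoforms, copies or readthrough genes. COX7B2 and NDUFC2-KCTD14 had 0 counts in every library.

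In siNAE1, 48 nuclear members were higher and 7 lower than control, against the 27.6% and 27.1% of all genes given above. As shares of tested nuclear members these are 57.8% and 8.43%. The median log2 fold change was 0.30. In siUBE2M, 31 were higher and 12 lower, or 37.3% and 14.5%, with a median of 0.07. In siURM1, 48 were higher and 5 lower, or 57.8% and 6.02%, with a median of 0.30. The median over all tested genes was -0.0021, 0.0075 and -0.021 in the same order. The 3 comparisons share the control libraries. Leaving out control replicate 2 or siNAE1 replicate 1 brought the 7 lower members in siNAE1 to 4, and leaving out control replicate 2 or siUBE2M replicate 1 brought the 12 in siUBE2M to 7 and 6.

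Changes were small by the study's threshold for a differentially expressed gene (DEG), which asks for an adjusted p under 0.05 and a log2 fold change of 1 or more in size. Over all tested genes 13.9% were DEGs in siNAE1, 7.11% in siUBE2M and 7.62% in siURM1. Among nuclear members 1 was a DEG in each knockdown, and it was NDUFA4L2 each time. Of the MT- members, 0 were DEGs by edgeR or DESeq2, and 0 met the fold threshold with an unadjusted p under 0.05.

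NDUFA4L2 (chr12:57234903-57240715, minus strand) encodes a paralog of NDUFA4 that is known as a hypoxia-induced gene. It was at 11.1, 11.9 and 8.08 CPM in control. It was at 3.30, 2.80 and 3.59 CPM in siNAE1, at 3.17, 4.07 and 3.93 CPM in siUBE2M and at 4.06 and 2.63 CPM in siURM1. The log2 fold changes were -1.69 ± 0.20, -1.47 ± 0.19 and -1.62 ± 0.22 (adjusted p = 1.68e-08, 1.89e-07 and 5.59e-07). Every knockdown library was below every control library. Its raw counts were 128 to 194 in control and 38 to 65 in the knockdowns. NDUFA4 itself rose, with log2 fold changes of 0.34, 0.27 and 0.55.

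Among nuclear members that passed, COX6B1 (chr19:35648223-35658861, plus strand), a complex IV subunit at the interface of the dimer, had the highest log2 fold change in each knockdown. It was at 60.7, 60.4 and 61.2 CPM in control and at 115, 114 and 123 CPM in siNAE1. It was at 105, 93.6 and 111 CPM in siUBE2M and at 117 and 126 CPM in siURM1. The log2 fold changes were 0.95 ± 0.07, 0.76 ± 0.07 and 1.00 ± 0.08 (adjusted p = 8.62e-13, 2.06e-10 and 4.64e-12). In siURM1 the unrounded value was just under the fold threshold, and DESeq2 called COX6B1 a DEG there. NDUFS5, an accessory subunit of complex I, was at 103, 111 and 99.7 CPM in control and at 174, 194 and 214 CPM in siNAE1. It was at 152, 151 and 193 CPM in siUBE2M and at 205 and 199 CPM in siURM1. Its log2 fold changes were 0.89, 0.66 and 0.95. No knockdown library overlapped control for either gene.

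Counts by complex stand beside all tested genes, of which 27.6% were higher and 27.1% lower in siNAE1, 22.7% and 22.6% in siUBE2M, and 20.8% and 20.8% in siURM1. In complex I, of 36 tested nuclear members, 18 were higher and 4 lower in siNAE1, 10 and 8 in siUBE2M, and 20 and 2 in siURM1. The siUBE2M counts are 27.8% and 22.2%, near those of all genes. The core subunits carry the flavin, the iron-sulfur clusters and the quinone site. For NDUFS1 the log2 fold change was 0.07 in siNAE1, -0.08 in siUBE2M and 0.25 in siURM1, of which the last passed (adjusted p = 0.00497). NDUFS7 passed in none of the comparisons with control, at 0.06, -0.06 and 0.17; genes on the opposite strand share 51.5% of its exonic bases. NDUFS3 rose in siNAE1 (0.38), NDUFS8 fell there (-0.18) and NDUFV1 fell in siUBE2M (-0.23). The calls on NDUFS1, NDUFS8 and NDUFV1 were each lost without at least 1 library: siURM1 replicate 1 for NDUFS1 (adjusted p up to 0.0635), and siUBE2M replicate 1 for NDUFV1 (adjusted p up to 0.0609). For NDUFS8 these were control replicate 1 or 2 or siNAE1 replicate 1 or 2 (adjusted p up to 0.143).

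Among accessory subunits of complex I, NDUFA9 rose in every knockdown, with log2 fold changes of 0.79, 0.34 and 0.86; the siUBE2M call was lost without siUBE2M replicate 3 (adjusted p up to 0.0579). NDUFB2 fell in every knockdown, at -0.27, -0.30 and -0.35; the siNAE1 call was lost without control replicate 2 or siNAE1 replicate 1 (adjusted p up to 0.0625). NDUFC2 was at 24.3, 24.9 and 25.7 CPM in control, at 18.8, 19.4 and 18.4 CPM in siNAE1 and at 16.5, 15.1 and 21.1 CPM in siUBE2M. It fell by 0.40 in siNAE1 and by 0.51 in siUBE2M on the log2 scale, and in siURM1 its value of -0.25 did not pass (adjusted p = 0.113). NDUFV3 fell in siNAE1 (-0.31) and siUBE2M (-0.48).

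Complex II, which oxidizes succinate, had 3, 3 and 4 of its 4 members higher in siNAE1, siUBE2M and siURM1; the remaining member, SDHD, did not pass in the first 2. SDHA, the flavoprotein, was at 162, 175 and 164 CPM in control, at 244, 261 and 266 CPM in siNAE1 and at 278 and 263 CPM in siURM1 (log2 fold changes 0.62 and 0.70). SDHB, the iron-sulfur subunit, rose by log2 fold changes of 0.73, 0.23 and 0.53. The membrane anchor SDHC rose by 0.42, 0.19 and 0.21, while the other anchor, SDHD, passed only in siURM1 among the comparisons with control (0.26). In siUBE2M the calls were lost without siUBE2M replicate 3 (SDHA and SDHB) or control replicate 1 (SDHB and SDHC). In siURM1 SDHC was lost without siURM1 replicate 1, and SDHD without either siURM1 library.

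Complex III had 9 of 10 members higher in siNAE1, the other not passing. In siUBE2M 5 were higher and 2 lower, and in siURM1 5 and 1. The Rieske iron-sulfur protein UQCRFS1 rose in each, with log2 fold changes of 0.77, 0.35 and 0.55. CYC1, cytochrome c1, was at 206, 196 and 185 CPM in control, at 240, 231 and 266 CPM in siNAE1, at 204, 194 and 206 CPM in siUBE2M and at 297 and 272 CPM in siURM1. It rose in siNAE1 (0.33) and siURM1 (0.54). The core protein UQCRC1 rose in siNAE1 (0.40) and fell in siUBE2M (-0.24). UQCRC2 rose in siNAE1 (0.22) and siURM1 (0.49). UQCRB rose in siNAE1 (0.23) and siUBE2M (0.20) and fell in siURM1 (-0.34); without control replicate 3 or siUBE2M replicate 3 the siUBE2M call was lost.

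Complex IV had 14 nuclear members tested, of which 9, 7 and 11 were higher and 1 was lower in each knockdown, NDUFA4L2. Where a subunit has isoforms, the widely expressed one had the higher level. COX4I1 had a mean of 59.5 FPKM in control, while COX4I2 was at 0 counts in the 3 control libraries. COX6A1 was at 64.7 FPKM and COX6A2 at 0 counts in control, and COX7A2 was at 53.5 FPKM against 0.163 FPKM for COX7A1. COX6B2, at 0.0956 FPKM, and COX8C, at 0.464 FPKM, were far below COX6B1 (64.4 FPKM) and COX8A (171 FPKM). COX7B, a small structural subunit, rose by log2 fold changes of 0.91, 0.46 and 0.76. COX8A rose by 0.57, 0.48 and 0.71. COX4I1 rose by 0.46 in siURM1. COX7A2 rose in siNAE1 (0.48) and siURM1 (0.47), and COX7A2L, an assembly factor of supercomplexes, rose in each (0.39, 0.66 and 0.49).

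Complex V had 9, 6 and 8 of 19 tested nuclear members higher and 2, 1 and 1 lower. ATP5F1B was at 715, 751 and 748 CPM in control and at 1169, 1248 and 1231 CPM in siNAE1. It was at 906, 858 and 929 CPM in siUBE2M and at 986 and 1008 CPM in siURM1, so that each knockdown lay above control (log2 fold changes 0.72, 0.28 and 0.43). The alpha subunit ATP5F1A rose by 0.55, 0.22 and 0.26. The gamma subunit ATP5F1C passed only in siURM1 among the comparisons with control, at -0.17 (adjusted p = 0.0445). That call was lost in 8 of 18 alternatives, among them those without control replicate 2 or 3, siUBE2M replicate 1 or 2, or either siURM1 library. ATP5S, a coupling factor rather than a subunit of the enzyme, fell in siNAE1 (-0.43).

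**Figure D2:**
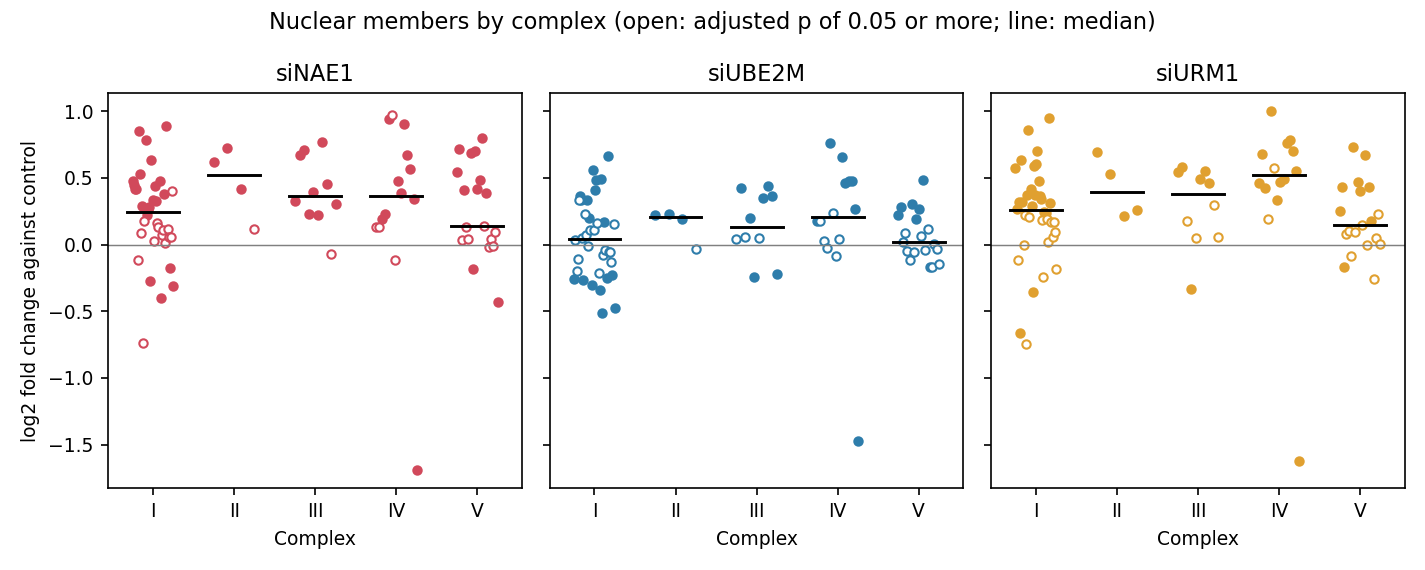
Log2 fold change against control of each tested nuclear member, by complex and knockdown, with a line at each median; open points have an adjusted p of 0.05 or more. The lowest point of each panel is NDUFA4L2 in complex IV, and the siUBE2M medians lie closest to 0.

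The knockdowns were also compared directly. Between siNAE1 and siUBE2M, 40 nuclear members were higher in siNAE1 and 6 lower, against 22.7% and 21.6% of all genes. Of the MT- members 9 were higher in siNAE1 and 4 did not pass, and DESeq2 called 8 different. The accessory subunit NDUFA1 (log2 fold change 0.74) and UQCR11 (0.65) were among the higher, and NDUFB5 (-0.38) and ATP5S (-0.28) among the lower. The ATP5S call was lost without siUBE2M replicate 1. The share of DEGs over all genes was 7.84%, with 0 among the members by edgeR and DESeq2 and 0 at an unadjusted p under 0.05.

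Between siNAE1 and siURM1, 18 nuclear members were higher in siNAE1 and 15 lower, against 19.5% and 19.1% of all genes. The total of 33 fell to 19 without siURM1 replicate 1 and 20 without siURM1 replicate 2. Of the MT- members 1 was higher, MT-ND6 (log2 fold change 0.55, adjusted p = 3.86e-06), and 5 were lower. The limits given above for MT-ND6 apply here as well. MT-ND2 (-0.46), MT-CYB (-0.42), MT-CO2 (-0.39), MT-CO3 (-0.36) and MT-ATP6 (-0.24) were the lower ones. The MT-ATP6 call was lost without siURM1 replicate 2. UQCRB (0.56) and NDUFA11 (0.54) were higher in siNAE1, and NDUFB5 (-0.58) and COX5A (-0.55) lower. DEGs were 6.76% of all genes and 0 of the members by edgeR and DESeq2, with 0 at an unadjusted p under 0.05.

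Between siUBE2M and siURM1, 4 nuclear members were higher in siUBE2M and 40 lower, against 16.7% and 18.3% of all genes. The total of 44 fell to 29 without siURM1 replicate 2. Of the MT- members 12 were lower and 1 did not pass, and DESeq2 also called 12. MT-ND2 differed most (-0.65), and MT-ND5 did not pass (-0.20, adjusted p = 0.197). UQCRB (0.54) and NDUFC1 (0.31) were higher in siUBE2M, and NDUFA1 (-0.83) and NDUFB9 (-0.68) lower. NDUFC1 was lost without siUBE2M replicate 3 or siURM1 replicate 1. DEGs were 5.41% of all genes and 1 of the members, NDUFA13, named after its values were seen.

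Some members have counts that depend on how fragments were assigned. NDUFV2, a core subunit of complex I, had a mean of only 0.435 FPKM in control and 13 to 29 counts per library. It shares 28.4% of its exonic bases with another gene on the same strand in GENCODE v44, and its named pseudogene holds 50.5% of the counts of the pair. NDUFA7 shares 32.5% and had 8 to 37 counts per library, and NDUFA13 shares 21.0% and had 51 to 104 counts. In the values behind its call, NDUFA13 was at 7.22, 6.82 and 7.16 CPM in siUBE2M and at 3.18 and 3.88 CPM in siURM1, with control at 5.92, 5.78 and 5.05 CPM between them. Levels of these genes are uncertain. Overlap also touches members with higher counts: COX8A shares 35.4% of its exonic bases on the same strand, NDUFB8 33.8%, SDHA 21.7%, NDUFC2 18.6% and NDUFS3 a smaller share. Their values are uncertain too, and so are the rises of COX8A, SDHA and NDUFS3 and the falls of NDUFC2. The strand setting of the counting is not given in the sources used here. If strand was ignored, members that share exonic bases with genes on the opposite strand, the falls of NDUFB2 and ATP5S included, are uncertain as well. Besides NDUFS7, the tested members with the largest such shares are ATP5ME (61.3%), ATP5S (41.8%), ATP5PF (37.3%), NDUFB2 (35.1%), UQCR10 (24.5%; it rose in each knockdown) and ATP5F1E (23.2%). Smaller shares, such as 19.5% in NDUFC1, 13.2% in NDUFB9 and 11.6% in NDUFS1, occur in others. Named pseudogenes of SDHA held 13.1% of the counts of SDHA and these copies, and UQCRHL is a near copy of UQCRH. Of the members, 58 have a pseudogene named after them in the deposited table. Among the nuclear copies of MT- genes, 3 of 394 passed the filter on low counts.

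Related lists were described in the same fit, and their counts stand beside the same shares of all tested genes: 27.6% higher and 27.1% lower in siNAE1, 22.7% and 22.6% in siUBE2M, and 20.8% and 20.8% in siURM1. Of 54 entries for assembly factors (SCO2 is listed as 2 entries, neither tested), 52 were tested, and 19, 6 and 12 were higher and 15, 18 and 15 lower in siNAE1, siUBE2M and siURM1. These are 36.5%, 11.5% and 23.1% higher and 28.8%, 34.6% and 28.8% lower. The medians were 0.07, -0.07 and 0.0055. SDHAF2, which helps flavinate SDHA, rose in each (log2 fold changes 1.03, 0.71 and 0.67), and SDHAF4, another complex II factor, fell in each (-0.93, -1.26 and -0.51). The copper chaperone COX17 was at 32.8, 33.7 and 33.2 CPM in control and at 15.7 and 15.7 CPM in siURM1 (-1.09). It rose in siUBE2M, to 37.3, 37.7 and 43.1 CPM (0.24, adjusted p = 0.0234), and its siNAE1 value of 0.06 did not pass.

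Of 32 genes of mitochondrial DNA expression, 17, 10 and 11 were higher and 4, 10 and 4 lower, or 53.1%, 31.2% and 34.4% higher and 12.5%, 31.2% and 12.5% lower. The medians were 0.28, -0.03 and 0.17. TFAM, which packages mitochondrial DNA and starts its transcription, was at 138, 164 and 163 CPM in control, at 106, 108 and 89.7 CPM in siNAE1, at 115, 113 and 99.9 CPM in siUBE2M and at 131 and 128 CPM in siURM1. It fell in each (-0.61, -0.50 and -0.26). The nuclease MGME1 fell in each (-0.83, -0.68 and -0.66). POLG, the DNA polymerase of mitochondria, rose in each (1.19, 0.85 and 0.51), as did FASTKD5, which acts in processing of MT- transcripts (1.23, 0.71 and 0.74). SLIRP, which binds and stabilizes MT- messenger RNAs, rose in siNAE1 (0.83) and siURM1 (0.75).

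Of 8 regulators of mitochondrial biogenesis, 3, 2 and 3 were higher and 3, 3 and 2 lower, with medians of 0.04, -0.11 and -0.17. In a list this short, such counts are near the shares of all genes. ESRRA, a nuclear receptor, rose in each knockdown (0.45, 0.25 and 0.61) and GABPB1 fell in each (-0.36, -0.36 and -0.47). Of 15 genes of ubiquinone and cytochrome c, 4, 3 and 3 were higher and 4, 7 and 5 lower, with medians of -0.05, -0.20 and 0.08. CYCS, cytochrome c, was at 278, 309 and 281 CPM in control, at 353, 384 and 354 CPM in siNAE1 and at 173, 161 and 180 CPM in siUBE2M. It rose in siNAE1 (0.33) and fell in siUBE2M (-0.76) and siURM1 (-0.33). ETFB and COQ5 fell in each knockdown. Of 13 citric acid cycle genes, 6, 4 and 10 were higher, with medians of 0.12, 0.0015 and 0.30. In siNAE1 2 were lower and in siUBE2M 4, while the other 3 in siURM1 did not pass. CS, citrate synthase, rose in each (0.29, 0.39 and 0.47).

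Promoter windows from RefSeq (GRCh38.p14; 250 bases before to 50 after the start) matched 68 nuclear members by symbol. Motifs of factors known to act on respiratory chain genes were searched on both strands. The 10-letter core of the NRF1 motif was in 4 of 68 windows (5.88%) and in 1.24% of all 35116 windows. The ETS letters CCGGAAG were in 27.9% and 10.3%, and the YY1 letters AAGATGG in 23.5% and 5.84%. The 35116 windows were not filtered for expression or gene type. Whether the higher shares are particular to respiratory chain genes was not tested. A match describes letters only. The windows printed here belong to members described above or, for COX7C, to a complex IV gene with YY1 letters wholly before its start. Matches that reach or follow the start were not considered for printing. The printed windows were chosen after the values were seen. Capitals mark the motif, read forward in SDHB and reversed in the others.
COX6B1, ETS letters (chr19:35648293-35648322, plus strand): agtccccacctctctcagCTTCCGGctggt
SDHB, ETS letters (chr1:17054142-17054171, minus strand): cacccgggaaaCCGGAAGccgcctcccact
COX8A, ETS letters (chr11:63974590-63974619, plus strand): ccagctccagaaCTTCCGGccagcgcagcc
COX7C, YY1 letters (chr5:86617911-86617940, plus strand): cctcaaggctccgccccatttcCCATCTTt
COX7C rose in each knockdown, with log2 fold changes of 0.67, 0.47 and 0.78, and COX6B1 and COX8A did as well, as given above. Whether such letters are more frequent in members that rose was not tested. ETS letters are also in the windows of NDUFS1, SDHD and NDUFA13, none of which rose in each knockdown. ATP5PF has both ETS and YY1 letters and passed in no comparison with control.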

How the data were processed

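RNA of 11 HEK293T libraries was selected by poly(A) and prepared with a strand-specific kit. Per the submitters' processing notes and methods, reads were trimmed with fastp, aligned to GRCh38 with HISAT2 2.0.5 and counted per gene with featureCounts 1.5.0-p3; the annotation version and strand setting are not given in the sources used here. The authors deposited raw counts per gene, and beside them FPKM values scaled to gene length and between libraries. The library scaling of the FPKM is not described in the sources used here, and the values do not follow plain library totals. Whether fold changes on the FPKM scale check the scaling apart from TMM was not tested. The counts gave all tests and CPM values, and FPKM compared levels between genes. Libraries held 11733163 to 16321391 counts, so that genes of a few counts are measured poorly. Libraries of a group differed by more than sampling noise (chi-square per degree of freedom 2.73 to 6.38). The labels call the libraries of a group biological replicates, without saying how cultures were kept apart, and p-values measure the spread between these libraries.

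Counts were fitted in R 4.3.3 with edgeR 4.0.16 (filterByExpr, TMM, quasi-likelihood test, 4 groups in one fit) and Benjamini-Hochberg adjustment over 18368 genes. A gene passed at an adjusted p under 0.05; a DEG also had a log2 fold change of 1 or more in size. Standard errors were derived from each fold change and its F statistic. The step was tested on simulated data. Alternatives were DESeq2 1.42.0 on the same genes, RLE scaling, TMM without MT- genes, no filter or at least 10 counts in every library, fits of 2 groups, a replicate block, the DEG threshold, log2 FPKM with a pseudocount of 1 or 0.1, a mean FPKM of at least 1, shares of protein-coding counts, and leaving out each library. Coordinates are those of the deposited table; exon overlap was taken from GENCODE v44, also GRCh38. Plots were made with Python 3.11.15 and matplotlib 3.10.9.

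Named genes were all MT- members, the DEGs, per knockdown the 3 highest and 3 lowest nuclear members that passed with a mean of at least 10 CPM, per pair of knockdowns the 2 highest and 2 lowest, complex II and CYC1, the core subunits, the isoform genes, the highest and lowest nuclear member of each complex by control FPKM, the targets, and in each related list the 2 highest and 2 lowest that passed. NDUFA7, NDUFA13, NDUFB8, COX7C, MT-RNR1, UQCR10, ATP5PF, ATP5ME and ATP5F1E were named after their values were seen. The members and lists were chosen with earlier results of these data known. Values of some genes that this rule names are not reported here.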

Additional observations from a re-analysis of the deposited data

How the results depend on the processing

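Of 483 alternative values for the counts, medians and shares, 428 stayed within 1.5 times the count or 1 SD of the value, 54 moved further and 1 changed sign; the causes were not tested. Without siUBE2M replicate 3 the median log2 fold change of MT- members in siUBE2M was -0.013 (0.06 with all libraries, and up to 0.10 without another library). With the DEG threshold, nuclear members were 0 higher and 1 lower in each knockdown, MT- members 0 in either direction, and between knockdowns 0 members differed except 1 nuclear member between siUBE2M and siURM1; here a higher threshold is the alternative itself. DESeq2 gave 1 MT- member higher in siUBE2M in place of 2. At least 10 counts in every library, and fits of 2 groups, each gave 1 MT- member lower in siUBE2M in place of 2.

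For siURM1 the MT- median of 0.39 was 0.36 with at least 10 counts in every library and 0.37 on either FPKM scale, with or without a mean FPKM of at least 1; the nuclear median of 0.30 was 0.28 and, on the log2(FPKM + 1) scale, 0.25. The MT- share in control was 4.08% of protein-coding counts in place of 3.92% of all counts.

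Leaving out 1 library at a time gave 0 to 2 MT- members higher and 0 to 4 lower in siUBE2M, and 1 to 2 lower in siNAE1. It gave 4 to 7 nuclear members lower in siNAE1 and 6 to 15 in siUBE2M. It gave 19 to 33 nuclear members that differed between siNAE1 and siURM1, and 29 to 54 between siUBE2M and siURM1. The siURM1 median ran from 0.33 to 0.42 for MT- members and from 0.28 to 0.36 for nuclear members. Without a siURM1 library, the other was assumed to vary like the other groups.

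The replicate numbers did not pair the libraries: same-numbered deviations correlated from -0.0657 to 0.0787, with 0 of 15 pairs over 0.1. With the replicate block the siURM1 medians were 0.42 for MT- and 0.32 for nuclear members, and 25 nuclear members differed between siNAE1 and siURM1 in place of 33. For single named members, 211 of the alternative values no longer passed, 73 newly passed and 0 changed sign while called. Genes of a few counts, such as NDUFV2, are limited by depth.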

Other observations

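The ribosomal and transfer RNA genes of mitochondrial DNA, which poly(A) selection captures in part, were read in the same fit. Of 24, 16 passed the filter on low counts. In siNAE1 10 were higher and 6 did not pass (edgeR, adjusted p under 0.05), in siUBE2M 5 were higher and 4 lower, and in siURM1 10 were higher and 6 did not pass. These stand beside 27.6% higher and 27.1% lower of all tested genes in siNAE1, 22.7% and 22.6% in siUBE2M, and 20.8% and 20.8% in siURM1. Some calls rest on few counts. In control, MT-TK and MT-TE, higher in siNAE1, had means of 0.286 and 0.245 CPM. MT-TV and MT-TL2, higher in siURM1, had 0.165 and 0.388 CPM there. Transfer RNA genes are short and cut from long precursors, and how much neighbouring RNA is counted in them was not tested. MT-RNR1, the small ribosomal RNA, was at 1578, 1818 and 1628 CPM in control and at 3542, 3913 and 3895 CPM in siNAE1 (log2 fold change 1.18, adjusted p = 1.76e-14). It was at 1298, 1289 and 1457 CPM in siUBE2M (-0.31, adjusted p = 0.000868), and its siURM1 values overlapped control. MT-RNR2, the large ribosomal RNA, was at 5097, 6048 and 5413 CPM in control and at 3713, 3688 and 4042 CPM in siUBE2M (log2 fold change -0.53, adjusted p = 1.10e-07). For MT-RNR2 the 2 other knockdowns overlapped control. Ribosomal RNA genes of mitochondrial DNA took 0.704%, 0.816% and 0.735% of all counts in control, 0.831%, 0.884% and 0.903% in siNAE1, 0.505%, 0.506% and 0.543% in siUBE2M, and 0.670% and 0.823% in siURM1. The siNAE1 libraries lay above control and the siUBE2M libraries below it. MT-TN was lower in siUBE2M (-0.42) and higher in siNAE1 (0.32) and siURM1 (0.38). MT-TN lies on the minus strand, so its values also depend on the strand setting of the counting.

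Among nuclear copies of MT- genes, MTND2P28, a copy of MT-ND2, was at 88.2, 75.4 and 81.1 CPM in control and at 144 and 128 CPM in siURM1 (log2 fold change 0.74). MT-ND2 itself had 0.85 in that comparison. How fragments were divided between the copy and MT-ND2 was not tested.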
